A study of Arabidopsis thaliana with 24 samples.

Results

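The genes described are 10 transcription factor genes of Arabidopsis thaliana chosen by locus, 6 of the NAC family and 4 of the HD-Zip I family, among 37336 gene identifiers in each deposited table. The NAC genes are RD26 (AT4G27410), NAC019 (AT1G52890), NAC055 (AT3G15500), ATAF1 (AT1G01720), NAC032 (AT1G77450) and NAP (AT1G69490). The HD-Zip I genes are HB5 (AT5G65310), HB6 (AT2G22430), HB7 (AT2G46680) and HB12 (AT3G61890). The rule names loci and uses no measured value, but the genes were picked with earlier results of these data known. All 10 are in both tables.

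Whole-leaf messenger RNA was compared between Col-0, the reference accession, and gtl1-4, described in the labels as a knockout of GTL1, a trihelix factor known as a repressor in trichome growth and in stomatal development. Plants of both genotypes grew in a chamber with an 8 h photoperiod and were kept well-watered, at 65 to 100% media water content, or in water deficit, at 30%. Leaf ages were emerging, sampled 1 day after emergence and labelled proliferating, and expanding, 14 to 15 days old and labelled post-differentiation. Each of the 8 combinations has 3 libraries, each a pool of 10 plants. The mutant is 1 allele, and other alleles or a complemented line were not analysed here.

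NAC and HD-Zip I proteins are plant transcription factors. Many NAC genes are switched on by drought, salt, abscisic acid or ageing, and RD26, NAC019 and NAC055 form a close subgroup first described through their binding to the promoter of the dehydration gene ERD1. HD-Zip I proteins carry a homeodomain beside a leucine zipper, and HB7 and HB12 are a related pair that abscisic acid and drought induce, while HB6 is known as a brake on abscisic acid responses.

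GTL1 itself was low, though not at 0, in all gtl1-4 libraries, and its range there never reached that of the matching Col-0 group. Its normalized count was 1511, 1459.5 and 1379 in well-watered Col-0 and 301, 320.3 and 384 in well-watered gtl1-4 emerging leaves, and 778, 739.5 and 951 against 257, 322 and 236 in expanding leaves. Libraries of emerging leaves held 14.7 to 43.5 M counts and those of expanding leaves 14.9 to 27.1 M. Chloroplast genes took 17.4 to 24.1% and 62.2 to 78.6% of these, so that nuclear genes held 11.4 to 32.8 and 4.74 to 10.0 M. The summed level of 5 proliferation markers was 4385 to 7123 in emerging and 41.8 to 123 in expanding leaves. The 2 senescence markers SAG12 and SAG13 summed to at most 9.59 in any library, with SAG12 listed at 0 throughout, and 3 root markers summed to at most 7.12.

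The promoter windows of HB7 and HB12 are shown because these 2 genes had the strongest water response of the HD-Zip I members and because their windows hold a long run in common. Each window is the 250 bases before the annotated gene start, read 5′ to 3′ on the gene's own strand from RefSeq's TAIR10.1, chr2:19166968-19167217 and chr3:22915394-22915643, both on the minus strand. Capitals mark the longest run of identical bases between them.
HB7: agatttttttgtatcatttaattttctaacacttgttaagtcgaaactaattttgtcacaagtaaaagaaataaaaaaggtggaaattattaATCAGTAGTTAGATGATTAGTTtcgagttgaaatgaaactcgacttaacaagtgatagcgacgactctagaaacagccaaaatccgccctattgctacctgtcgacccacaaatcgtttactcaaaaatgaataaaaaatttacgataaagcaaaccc
HB12: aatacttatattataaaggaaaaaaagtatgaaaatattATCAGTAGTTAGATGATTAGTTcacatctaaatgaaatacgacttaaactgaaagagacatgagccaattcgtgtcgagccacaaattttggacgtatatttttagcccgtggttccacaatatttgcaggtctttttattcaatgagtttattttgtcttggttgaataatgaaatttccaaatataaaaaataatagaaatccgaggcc
The shared run is 22 bases long and lies 158 to 137 bases before the start of HB7 and 211 to 190 bases before that of HB12. It was looked for after the windows had been seen. Over all 45 pairs of the 10 windows, compared on both strands, the longest run in any other pair was 14 bases. Of 27443 windows of protein-coding genes of the same length, 2 hold the run on either strand, those of HB7 and HB12. The transcripts of this pair are 80.4% identical over their best 301 aligned bases.

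The window of NAP, on the plus strand at chr1:26121830-26122079, is shown as an example of a member with an abscisic acid response element core, with that element and its flanking base in capitals.
NAP: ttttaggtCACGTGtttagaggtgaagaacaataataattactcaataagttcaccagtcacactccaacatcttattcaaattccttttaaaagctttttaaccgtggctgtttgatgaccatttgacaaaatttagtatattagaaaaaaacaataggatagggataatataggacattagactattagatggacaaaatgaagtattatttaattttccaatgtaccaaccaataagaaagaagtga
The element core, ACGTG, was searched on both strands and was found in 5 of the 10 windows, those of RD26, NAC019, NAC032, NAP and HB5, against 22.9% of all windows. A palindromic CACGTG holds the letters on both strands and so counts once on each. The NAC core CATGTG was in 0 of the 10 windows and in 11.1% of all, and the HD-Zip I site CAATNATTG was in 0 of 10 and in 0.918% of all. The trihelix box GGTAAA was in the window of NAC055 alone among the 10 and in 14.8% of all. A missing match says only that these letters are not in this stretch.

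HB6 was the most abundant of the 10 transcripts at both leaf ages, and NAC055 was barely detected. On the scale of normalized count per kilobase of the longest annotated transcript, the level of HB6 in well-watered Col-0 was 809 ± 107 in emerging and 743 ± 26.4 in expanding leaves (SD, n = 3), and its lowest library lay above every library of every other member in all 8 groups. In emerging leaves HB5 followed at 232 ± 17.2, then HB12 at 170.1 ± 39.9, ATAF1 at 79.0 ± 5.59, HB7 at 59.8 ± 5.32 and NAP at 46.0 ± 24.1. The libraries of HB7 overlapped those of NAP, and those of NAP overlapped those of NAC032 at 23.2 ± 6.94, so these neighbours did not differ beyond their spread. RD26 at 9.75 ± 1.88 and NAC019 at 8.42 ± 3.47 overlapped as well.

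The order by length-scaled level was different under deficit. In expanding leaves of Col-0, HB7 rose from the fifth place, at 66.1 ± 5.01, to the second, at 404 ± 30.3, with all of its deficit libraries above those of HB12 at 326 ± 27.1. HB5 went from 120.4 ± 22.1 to 78.1 ± 10.5 and from the third place to the sixth. When well-watered, libraries of HB5 overlapped those of HB12, and libraries of HB7 those of NAP. Under deficit, libraries of HB5 overlapped those of ATAF1, so these neighbouring places are not resolved. In emerging leaves of Col-0 under deficit HB12 was at 613 ± 226 and HB7 at 333 ± 114, next after HB6, and their libraries overlapped.

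NAC055 was listed at 0 in 15 of 24 libraries and at no more than 3.18 in all others but 1, the second gtl1-4 water-deficit library of emerging leaves, where it was 12.9. Its mean was below 10 in both tables, so it was not tested and no fold is given. The other 9 members passed this filter on the mean at both leaf ages, and counts below are out of these 9.

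**Figure D1:**
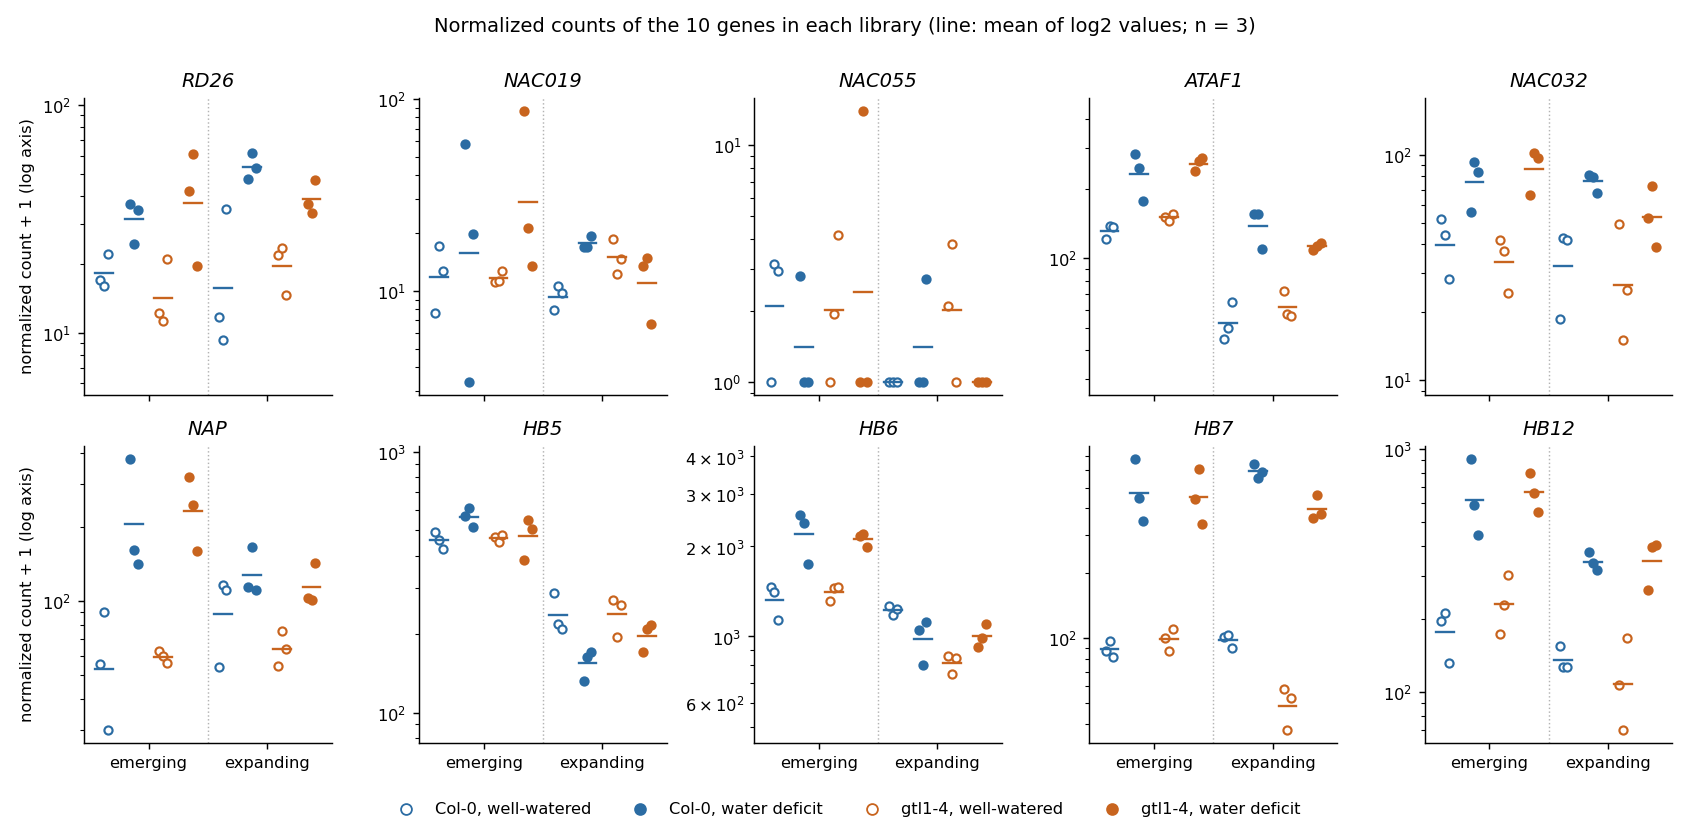
Normalized count plus 1 of each of the 10 genes in every library on a log axis, 1 panel per gene, with open circles for well-watered and filled circles for water-deficit libraries, blue for Col-0 and orange for gtl1-4, and a line at the mean of the log2 values of 3 libraries. HB7 under deficit lies between 336 and 676, above every well-watered library, none of which exceeds 109.

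HB7, HB12 and ATAF1 were called higher under deficit in both genotypes at both leaf ages. In emerging leaves of Col-0, 5 of the 9 tested members were called higher and 0 lower with limma at an adjusted p under 0.05, namely ATAF1, NAP, HB6, HB7 and HB12. Of all 18529 genes tested there, 13.2% were called in either direction and 6.48% were called higher. In gtl1-4 the same 5 and NAC032 were called higher, 6 of 9 against 8.87% of all genes called and 4.98% called higher. The members' median log2 fold change was 0.81 in Col-0 and 1.36 in gtl1-4, and the median over all tested genes was -0.0033 and -0.0023. The 10 genes were picked with earlier results of these data known, so these counts describe them and do not test them as a set.

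In expanding leaves of Col-0, RD26, ATAF1, HB7 and HB12 were called higher and HB5 lower. These are 4 and 1 of 9, against 13.5% of 16522 genes called, 6.18% higher and 7.32% lower. In gtl1-4, ATAF1, HB7 and HB12 were called higher, 3 of 9 against 4.76% of all genes called and 2.36% called higher. The members' median log2 fold change was 1.24 in Col-0 and 0.87 in gtl1-4, beside 0.016 and 0.0078 over all tested genes. In whole leaves, fewer cells of a type and less RNA per cell cannot be told apart.

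Summed levels of markers of other cell types were also set out by water supply, and some of their ranges overlapped. The summed level of 4 vascular markers, SUC2, APL, VND7 and IRX3, all detected, ranged over 543 to 599 in well-watered and 883 to 1108 in deficit emerging leaves of Col-0. In gtl1-4 emerging leaves these ranges were 479.8 to 639 and 981 to 1130.1. In expanding leaves they were 879 to 1246 and 1555 to 1964 in Col-0, without overlap. In gtl1-4 expanding leaves they were 1117 to 1915 and 1379.8 to 1928, with overlap. Only SUC2 of these 4 was called in emerging leaves, at a log2 fold change of 1.16 in Col-0 and 1.297 in gtl1-4. There APL was at 0.02 and 0.33, IRX3 at -0.08 and -0.03 and VND7 at -2.35 and 0.61. In Col-0 expanding leaves SUC2 and APL were called, at 0.83 and 0.92, and IRX3, at 0.48, was not. None was called in gtl1-4 expanding leaves, and VND7 was not tested at that age. The 5 proliferation markers summed to 6619 to 7123 in well-watered and 4966 to 6029 in deficit Col-0 emerging leaves. In gtl1-4 they summed to 6043 to 6784 and 4385 to 5669. PCNA1 alone of them was called, at a log2 fold change of -0.93 in Col-0 and -0.68 in gtl1-4. In these leaves CYCB1;1 was at -0.12 and -0.16, KNOLLE at 0.12 and -0.33, CDKB2;1 at -0.07 and 0.06 and GIF1 at 0.22 and 0.50. The sum of 3 epidermis and trichome markers, ATML1, PDF1 and GL2, was 443 to 491 in well-watered and 259.5 to 344 in deficit Col-0 expanding leaves. In gtl1-4 expanding leaves it was 385 to 469 and 261 to 352. Of these 3 only ATML1 was called there, at a log2 fold change of -0.74 in Col-0 and -0.59 in gtl1-4. GL2 went the other way, at 0.26 and 1.005, and was not called. PDF1 was not tested at that age. The sum of 3 guard cell markers in well-watered and then deficit expanding leaves was 164 to 268 and 145 to 154 in Col-0. In gtl1-4 it was 269.8 to 357 and 143 to 168. KAT1 alone of them was called, at a log2 fold change of -0.90 in Col-0 and -1.25 in gtl1-4. FAMA was at -0.28 and -0.33 and MYB60 at 0.89 and -0.32, neither called. In emerging leaves the epidermis and trichome sum was 12150.5 to 13078 and 10369 to 11120.5 in Col-0 and 10039 to 14952 and 9522 to 13081 in gtl1-4. The guard cell sum there was 324 to 456 and 274 to 403 in Col-0 and 308 to 399 and 286.7 to 287.0 in gtl1-4. In these leaves the epidermis and trichome ranges of gtl1-4 and the guard cell ranges of Col-0 overlapped. No marker of either list was called in emerging leaves. The sum of 3 photosynthetic markers in gtl1-4 was 257577 to 288171 and 312197 to 374825 in emerging and 187171 to 234309 and 165470.0 to 186842 in expanding leaves, without overlap at either age. In Col-0 it was 314365 to 333254 and 306098 to 355610.0, and 161227 to 189234 and 144222 to 164482, with overlap at both ages. The only called photosynthetic marker was RCA in Col-0 expanding leaves, at a log2 fold change of -0.77, where LHCB1.2 was at 0.33 and RBCS1A at -0.25. The markers of these 4 lists were detected in each group, apart from the proliferation marker GIF1, listed at 0 in well-watered Col-0 expanding leaves. The part of these shifts in the water response of the members was not tested.

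**Figure D2:**
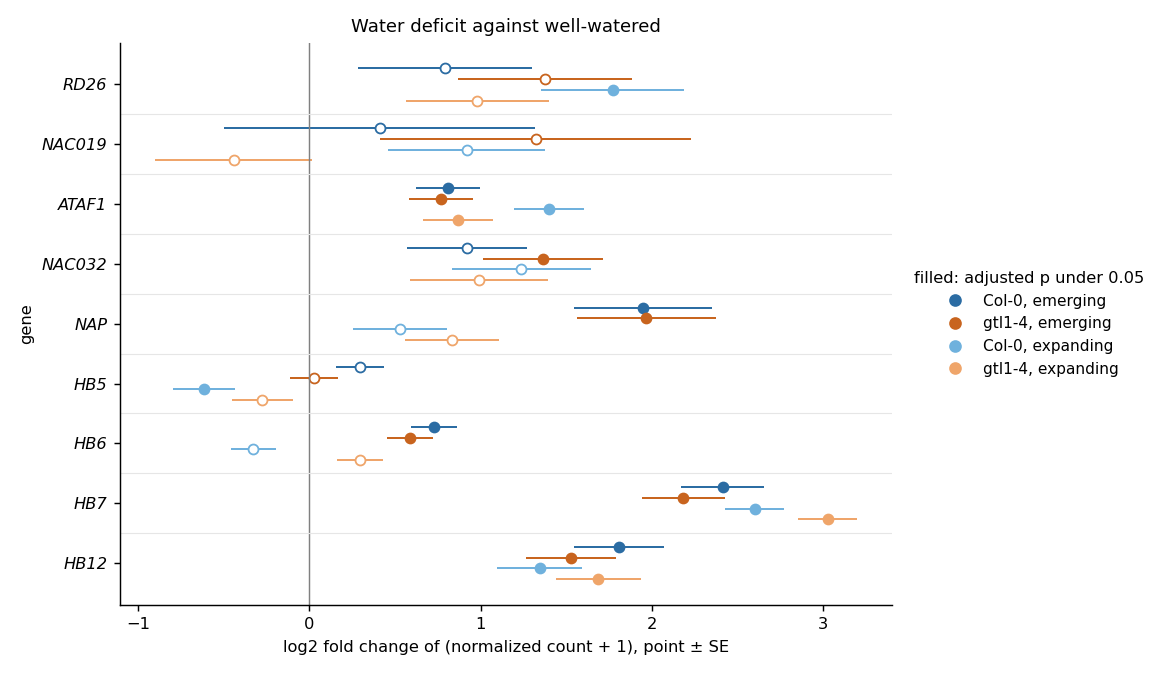
Fitted log2 fold change of water deficit against well-watered (horizontal axis, point ± SE) for the 9 tested members in both genotypes and leaf ages, with filled points where the adjusted p was under 0.05. HB7, HB12 and ATAF1 are filled in all 4 comparisons, and HB5 in Col-0 expanding leaves is the only filled point below 0.

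Among the HD-Zip I genes, HB7 (chromosome 2, 19165274 to 19166967, minus strand, TAIR10.1) had the largest fitted response of the 9 members in each of the 4 water comparisons. In emerging leaves of Col-0 its normalized count was 86.6, 96.7 and 81.2 when well-watered and 676, 446 and 349 under deficit. The groups lay far apart, and the first deficit library was the highest. The ratio of the group means was 5.56 (log2 fold change 2.41, SE 0.24, adjusted p = 1.92e-05). In gtl1-4 the emerging leaf values were 99.6, 86.6 and 109 when well-watered and 443, 607 and 336 under deficit, again without overlap, with a ratio of 4.69 (log2 fold change 2.18, SE 0.24, adjusted p = 5.50e-05).

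In expanding leaves the HB7 values of Col-0 were 101, 102 and 88.9 when well-watered and 641, 552 and 592 under deficit. Both groups were tight and well separated (log2 fold change 2.60, SE 0.17, adjusted p = 2.57e-07). In gtl1-4 they were 57.0, 36.7 and 52.1 when well-watered and 362, 460.0 and 374 under deficit, a rise to 8.20 times the well-watered mean from a lower start (log2 fold change 3.03, SE 0.17, adjusted p = 4.37e-08). The response of gtl1-4 exceeded that of Col-0 by 0.43 on the log2 scale (SE 0.24), a difference that did not pass (adjusted p = 0.845). None of these 4 HB7 calls was lost under any alternative processing or without any 1 library.

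HB12, the relative of HB7 (chromosome 3, 22914154 to 22915393, minus strand), also rose in all 4 comparisons. In emerging leaves its normalized count was 196, 211 and 132 in well-watered and 908, 586 and 444 in deficit Col-0. Every deficit library was above every well-watered one (log2 fold change 1.81, SE 0.26, adjusted p = 0.000434). In gtl1-4 the values were 173, 228 and 304 when well-watered and 799.9, 659 and 551 under deficit, also without overlap (log2 fold change 1.53, SE 0.26, adjusted p = 0.00194).

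In expanding leaves of Col-0 HB12 went from 154, 126 and 126 when well-watered to 375, 338 and 319 under deficit (log2 fold change 1.34, SE 0.25, adjusted p = 0.00210). In gtl1-4 it went from 106, 69.1 and 167 when well-watered to 262, 395 and 404 under deficit, with the well-watered libraries spread more widely than those of Col-0 (log2 fold change 1.69, SE 0.25, adjusted p = 0.000680). In both genotypes the groups were separate, and these calls held in every alternative and without each library.

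HB6, the brake on abscisic acid responses (chromosome 2, 9525988 to 9527845, minus strand), rose with deficit in emerging leaves but had no called water response in expanding ones. In emerging leaves of Col-0 its normalized count was 1468, 1406 and 1135 when well-watered and 2554, 2388 and 1749.9 under deficit. The deficit group lay above the well-watered group, by a ratio of means of 1.67 (log2 fold change 0.73, SE 0.13, adjusted p = 0.00242). In gtl1-4 the values were 1318, 1448 and 1462 when well-watered and 2160.1, 2208 and 1996 under deficit, without overlap (log2 fold change 0.59, SE 0.13, adjusted p = 0.0131). This gtl1-4 call was lost without well-watered replicate 1 (adjusted p = 0.0641) and without a variance trend (adjusted p = 0.0518).

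In expanding leaves of Col-0 HB6 was 1268, 1181 and 1232 when well-watered and 1046, 801 and 1116 under deficit, where each deficit library was below each well-watered one. The difference did not pass (log2 fold change -0.33, SE 0.13, adjusted p = 0.116). In gtl1-4 the order was the other way, with 861, 746 and 848 when well-watered and 921, 991 and 1103 under deficit, again without overlap and without passing (log2 fold change 0.30, SE 0.13, adjusted p = 0.279). The difference between the genotypes' responses was 0.62 (SE 0.19), at an unadjusted p of 0.00443 and an adjusted p of 0.845 in limma over all 16522 genes.

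HB5, an HD-Zip I factor of abscisic acid signalling, fell with deficit in expanding leaves of Col-0. Its normalized count was 288, 218 and 207 when well-watered and 131, 162 and 169.7 under deficit. The first well-watered library stood above the other 2, and the groups did not overlap (log2 fold change -0.61, SE 0.18, adjusted p = 0.0320). The call was lost without the first well-watered or the first deficit library (adjusted p up to 0.125), without a variance trend and in a fit of only these 2 groups. In gtl1-4 expanding leaves HB5 was 269, 195 and 257 when well-watered and 169, 208 and 216 under deficit, with overlap (log2 fold change -0.27, adjusted p = 0.517).

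In emerging leaves HB5 was 492, 459 and 424 in well-watered and 565, 611 and 514 in deficit Col-0. The deficit libraries were all higher, and the difference did not pass (log2 fold change 0.30, adjusted p = 0.178). In gtl1-4 the 2 water supplies overlapped fully, at 469.6, 449 and 481 when well-watered and 385, 549 and 505 under deficit.

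Among the NAC genes, ATAF1 (chromosome 1, 267993 to 269819, plus strand) was the only member with a call in all 4 water comparisons. ATAF1 is a factor reported to bind the promoter of NCED3, the rate-limiting gene of abscisic acid synthesis. In emerging leaves its normalized count was 119.9, 136 and 135 in well-watered and 281, 244 and 176 in deficit Col-0. All deficit libraries were higher (log2 fold change 0.81, SE 0.18, adjusted p = 0.00977), and the call was lost without the first of them (adjusted p = 0.0604). In gtl1-4 the values were 150.4, 144 and 154 when well-watered and 237, 262 and 269 under deficit, each group tight and apart from the other (log2 fold change 0.77, SE 0.18, adjusted p = 0.0175). That call was lost in 3 of 6 fits without 1 library (adjusted p up to 0.0623).

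In expanding leaves of Col-0 ATAF1 went from 43.9, 48.8 and 63.6 when well-watered to 154, 154 and 109 under deficit, without overlap (log2 fold change 1.40, SE 0.20, adjusted p = 0.000329). In gtl1-4 it went from 71.3, 56.4 and 55.2 when well-watered to 107, 112 and 116 under deficit, also without overlap (log2 fold change 0.87, SE 0.20, adjusted p = 0.0200). The gtl1-4 call was lost in 5 of 6 fits without 1 library, all but that without well-watered replicate 1, with adjusted p up to 0.0834. ATAF1 overlaps the protein-coding gene AT1G01725 and the long non-coding RNA gene AT1G04043 on the other strand, and strand use in the counting is not stated, so reads of these genes cannot be told apart from its own.

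NAC032, the closest relative of ATAF1 among the members, shares 82.3% of bases with it over 260 aligned bases, and reads could be divided between such copies. Its emerging leaf values in gtl1-4 were 40.7, 36.3 and 23.3 when well-watered and 65.2, 100.5 and 95.1 under deficit. All deficit libraries were higher (log2 fold change 1.36, SE 0.35, adjusted p = 0.0248), and the call was lost in 4 of 6 fits without 1 library (adjusted p up to 0.0842), without a low-value filter and in a fit of only these 2 groups. In Col-0 it was 50.6, 43.0 and 27.1 when well-watered and 54.9, 91.8 and 82.4 under deficit, which did not pass (log2 fold change 0.92, SE 0.35, adjusted p = 0.0971).

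In expanding leaves of Col-0 NAC032 was 17.7, 41.7 and 41.0 when well-watered and 80.5, 78.7 and 66.7 under deficit. The groups were separate, and the adjusted p was just over the threshold (log2 fold change 1.24, SE 0.40, adjusted p = 0.0530). It passed with a pseudocount of 5, with array weights, with voom weights and without well-watered replicate 2. In gtl1-4 the groups overlapped, at 48.3, 14.1 and 24.2 when well-watered and 51.4, 71.2 and 37.9 under deficit (log2 fold change 0.99, adjusted p = 0.218).

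NAP, known as a promoter of leaf senescence that acts on the abscisic acid synthesis gene AAO3, rose with deficit in emerging leaves. In Col-0 its normalized count was 54.6, 89.1 and 29.0 when well-watered and 377, 160.0 and 141 under deficit. The first deficit library was well above the others, and no library of one group reached the other (log2 fold change 1.95, SE 0.40, adjusted p = 0.00553). With voom weights this call was lost (adjusted p = 0.0594). In gtl1-4 the values were 62.0, 58.7 and 55.1 when well-watered and 318, 246 and 159 under deficit, without overlap (log2 fold change 1.97, SE 0.40, adjusted p = 0.00687).

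In expanding leaves neither genotype had a called NAP response. Col-0 had 53.1, 116 and 109.8 when well-watered and 113, 165 and 109.9 under deficit, with overlap (log2 fold change 0.53, adjusted p = 0.217). In gtl1-4 the values were 53.7, 74.8 and 62.7 when well-watered and 102, 100.4 and 142 under deficit, where the groups were separate but did not pass (log2 fold change 0.83, adjusted p = 0.105). The gtl1-4 difference passed with array weights and in a fit of only these 2 groups.

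RD26, a dehydration-induced factor, had 1 call, in Col-0 expanding leaves, and rested on 11 to 65 recovered counts per library in emerging and 7 to 60 in expanding leaves. Its normalized count there was 10.8, 8.34 and 34.0 when well-watered and 46.2, 60.3 and 51.9 under deficit. The third well-watered library stood well above the other 2 and still below all deficit libraries (log2 fold change 1.77, SE 0.42, adjusted p = 0.0106). In gtl1-4 the values were 20.8, 22.6 and 13.7 when well-watered and 35.7, 32.6 and 45.9 under deficit, separate and not passing (log2 fold change 0.98, adjusted p = 0.247).

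In emerging leaves RD26 in Col-0 was 16.0, 15.0 and 21.3 when well-watered and 35.8, 23.5 and 33.7 under deficit, with all deficit libraries higher and no call (log2 fold change 0.79, adjusted p = 0.336). In gtl1-4 it was 11.2, 10.2 and 20.1 when well-watered and 41.1, 59.9 and 18.7 under deficit, with overlap from the third deficit library. The gtl1-4 difference did not pass (log2 fold change 1.38, adjusted p = 0.106), and passed without that library.

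NAC019, a close relative of RD26, had no called water response and rested on 3 to 96 recovered counts per library in emerging and 5 to 22 in expanding leaves. Its emerging leaf values under deficit were the most uneven of the tested members, 57.3, 2.35 and 18.9 in Col-0 and 85.2, 20.3 and 12.5 in gtl1-4. When well-watered, NAC019 was 6.66, 16.1 and 11.6 in Col-0 and 10.2, 10.2 and 11.7 in gtl1-4. The first deficit library of each genotype was well above the others. In expanding leaves it was 6.92, 9.53 and 8.72 when well-watered and 15.8, 16.0 and 18.2 under deficit in Col-0 (log2 fold change 0.92, adjusted p = 0.200), with all deficit libraries higher. In gtl1-4 it was 17.5, 11.3 and 13.7 when well-watered and 12.4, 13.7 and 5.74 under deficit, with overlap. Its best match elsewhere is NAC055, 88.4% identical over 268 bases.

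Loss of GTL1 went with lower HB7 and HB6 in well-watered expanding leaves, and with no called member in emerging leaves. In well-watered expanding leaves these 2 of 9 members were called lower and 0 higher, against 1.34% of all genes called and 0.636% called lower. The HB7 values 101, 102 and 88.9 of Col-0 and 57.0, 36.7 and 52.1 of gtl1-4 did not overlap, and the gtl1-4 mean was 50.1% lower (log2 fold change -1.01, SE 0.17, adjusted p = 0.00865). The HB6 values 1268, 1181 and 1232 and 861, 746 and 848 did not overlap either, with a mean 33.3% lower in gtl1-4 (log2 fold change -0.59, SE 0.13, adjusted p = 0.0399).

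The HB6 call was lost in all 6 fits without 1 library (adjusted p up to 0.142), with quantile scaling, without a variance trend and in a fit of only these 2 groups. The HB7 call was kept without each library and was lost in the fit of only the 2 groups (adjusted p = 0.116). The sum of 3 guard cell markers was 164 to 268 in Col-0 and 269.8 to 357 in gtl1-4 in these leaves, without overlap. Of all tested genes, 18% had groups without overlap here. None of these markers was called by limma (adjusted p = 0.231 for KAT1, 0.791 for FAMA and 0.537 for MYB60). The vascular marker APL was called higher (log2 fold change 0.84, adjusted p = 0.0262). SUC2 and IRX3 were not called, and VND7 was not tested. Of the epidermis and trichome markers, GL2 was at -1.23 (adjusted p = 0.244) and ATML1 at -0.03, neither called. The part of any of these marker lists in the lower HB7 and HB6 was not tested.

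Under deficit in expanding leaves 0 of 9 members were called with limma, 1 had an unadjusted p under 0.05, and 0.169% of all genes were called. HB7 was that member, with 641, 552 and 592 in Col-0 and 362, 460.0 and 374 in gtl1-4, again without overlap and 33.0% lower in the mean (log2 fold change -0.58, SE 0.17, adjusted p = 0.370). Averaged over both water supplies HB7 was the 1 member called, at a log2 fold change of -0.80 in gtl1-4 (SE 0.12, adjusted p = 0.00211), where 1.88% of all genes were called and 0.956% were lower. HB6 under deficit was nearly level between the genotypes (log2 fold change 0.04, SE 0.13).

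HB12 had no called difference between genotypes in expanding leaves. Its log2 fold change between genotypes was -0.33 (SE 0.25, adjusted p = 0.579) in well-watered and 0.02 (SE 0.25, adjusted p = 0.996) in deficit expanding leaves. Whether HB7 and HB12 differ in this was not tested.

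In emerging leaves 0 of 9 members were called by limma between genotypes and 0 had an unadjusted p under 0.05, whether well-watered, under deficit or averaged. The shares of all genes called were 0.162%, 0.183% and 0.443%. HB7 in well-watered emerging leaves had a log2 fold change of 0.15 (SE 0.24, adjusted p = 0.931) and HB6 one of 0.08 (SE 0.13, adjusted p = 0.932). No test was made between the leaf ages, since their tables were scaled separately.

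The water response did not differ between genotypes at the threshold for any member. For this interaction 0 of 9 members and 0% of all genes were called by limma in emerging leaves, and 0 of 9 members and 0% of all genes in expanding leaves. At an unadjusted p under 0.05 there were 0 members and 987 genes in emerging leaves and 1 member, HB6, and 948 genes in expanding leaves. The interaction of ATAF1 in expanding leaves was -0.53 (SE 0.29, adjusted p = 0.845) and that of RD26 was -0.79 (SE 0.59, adjusted p = 0.872).

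**Figure D3:**
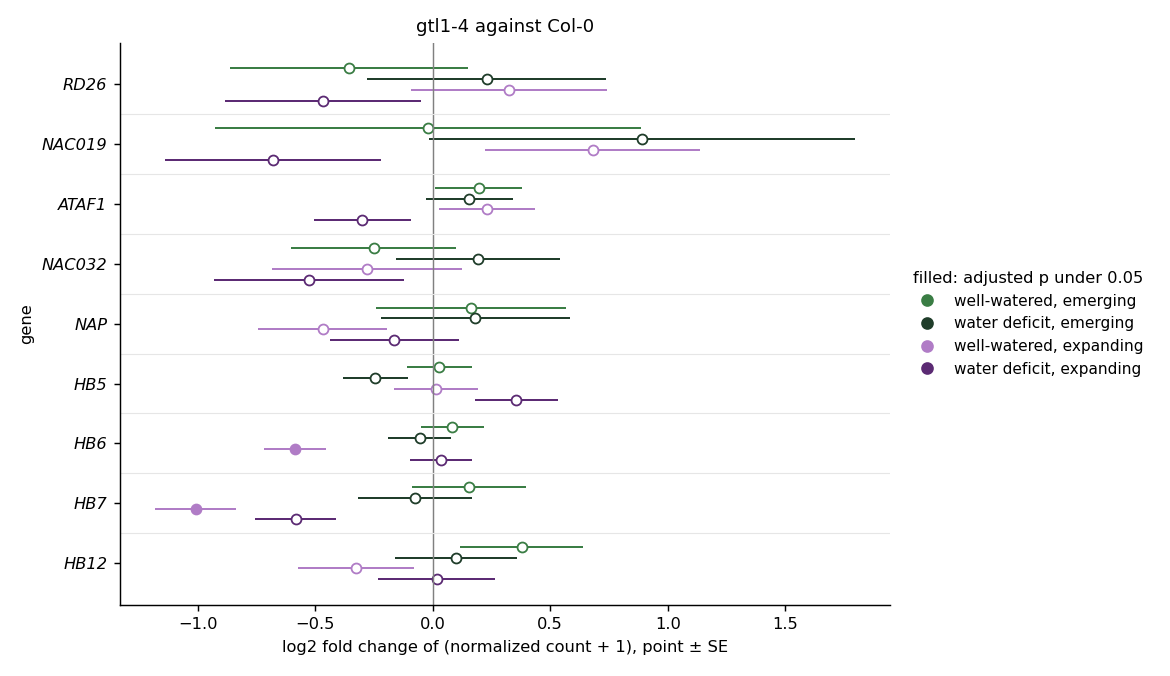
Fitted log2 fold change of gtl1-4 against Col-0 (horizontal axis, point ± SE) for the 9 tested members under both water supplies and at both leaf ages, with filled points where the adjusted p was under 0.05. The 2 filled points are HB7 at -1.01 and HB6 at -0.59 in well-watered expanding leaves.

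The genes whose profiles were closest to those of the members with 4 water calls include several of the abscisic acid system. Likeness was measured as the root mean square difference of log2(value + 1), centred within each table, over 24 libraries, among 16185 genes tested at both ages. Closest to HB7 were AFP3, a gene for an ABI5 binding protein, at 0.383, and GBF3, a bZIP factor gene, at 0.405, beside a standard deviation of HB7 itself of 1.34. Closest to HB12 were ABI2 at 0.262 and PP2CA at 0.334, both genes of clade A protein phosphatases that hold abscisic acid signalling off, beside 0.867. Closest to ATAF1 were AT2G37200, named by locus alone, at 0.203 and XERICO, a RING-H2 gene known to raise abscisic acid levels, at 0.222, beside 0.529.

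These 6 neighbours were all called higher under deficit in both genotypes at both leaf ages, which the choice by likeness favours, as it does any match in the differences between genotypes. AFP3 in expanding leaves was 60.9 ± 7.92 in well-watered and 280.0 ± 34.8 in deficit Col-0 (SD, n = 3), and 31.6 ± 10.6 and 178 ± 34.6 in gtl1-4. Between genotypes in well-watered expanding leaves the log2 fold change was -0.97 for AFP3 and -0.06 for GBF3, given as a description of genes chosen on these libraries.

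**Figure D4:**
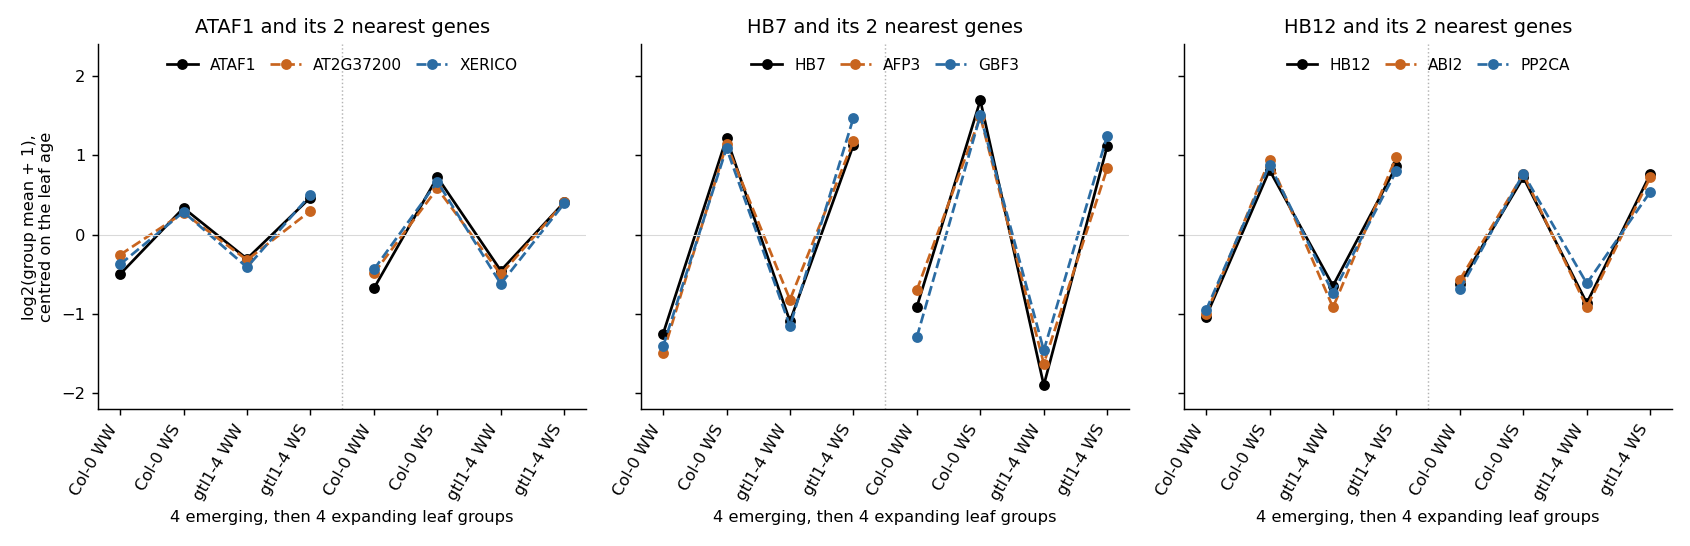
Log2 of the group mean plus 1, centred within each leaf age (vertical axis), for ATAF1, HB7 and HB12 (solid black) and the 2 genes nearest to each (dashed), over the 4 groups of emerging and then of expanding leaves. All profiles rise from well-watered (WW) to water deficit (WS), and in well-watered gtl1-4 expanding leaves HB7 is at its lowest.

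Of 19 further stress and senescence NAC genes, 11 were tested in emerging and 10 in expanding leaves. NAC013, a factor of the mitochondrial stress response, was the 1 call in any water comparison, higher in Col-0 emerging leaves (log2 fold change 0.78, SE 0.25, adjusted p = 0.0495). That is 1 of 11 beside 13.2% of all genes called in that comparison. Their median log2 fold change was -0.07 and 0.01 in emerging and -0.17 and -0.10 in expanding leaves of Col-0 and gtl1-4.

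Of 13 further HD-Zip I genes, 6 were tested in emerging and 4 in expanding leaves. In Col-0, 2 of 6 were called in emerging and 2 of 4 in expanding leaves, beside 13.2% and 13.5% of all genes, and 0 in gtl1-4, beside 8.87% and 4.76%. Under deficit in Col-0 emerging leaves HB16, which is 84.6% identical to HB6 over 285 bases, was higher by 0.55 (adjusted p = 0.0200), and HB52 was lower (log2 fold change -3.08, adjusted p = 0.0439). In Col-0 expanding leaves HB13 and HB23 were lower (log2 fold change -1.54 and -1.77, adjusted p = 0.000193 and 0.00456). HB23 was also lower in well-watered gtl1-4 than in Col-0 expanding leaves (log2 fold change -1.71, adjusted p = 0.0293).

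Of 14 genes reported elsewhere as acted on by the members, 12 were tested in emerging and 11 in expanding leaves. In emerging leaves 3 rose and 2 fell in Col-0, and 2 rose and 1 fell in gtl1-4, where 13.2% and 8.87% of all genes were called. In expanding leaves 3 rose and 1 fell in Col-0, and 2 rose and 1 fell in gtl1-4, where 13.5% and 4.76% of all genes were called. HAI1, a clade A phosphatase gene, rose in all 4 water comparisons, by 2.63 and 2.09 on the log2 scale in emerging and by 4.18 and 3.97 in expanding leaves of Col-0 and gtl1-4. NCED3 rose in all 4, by 2.03, 2.86, 0.78 and 0.93 in the same order, and the abscisic acid receptor gene PYL8 fell in all 4, at -0.72, -0.65, -1.38 and -1.21. ERD1 rose in Col-0 emerging leaves (log2 fold change 0.62, adjusted p = 0.0362). AAO3 rose in Col-0 expanding leaves (log2 fold change 0.49, adjusted p = 0.0433), and the receptor gene PYL5 fell in Col-0 emerging leaves (log2 fold change -3.14, adjusted p = 0.0253).

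In well-watered expanding leaves NCED3 was lower in gtl1-4, as HB7 was. Its mean went from 176 ± 22.9 in Col-0 to 106 ± 14.7 in gtl1-4 (SD, n = 3, log2 fold change -0.73, SE 0.17, adjusted p = 0.0499). It was the 1 gene called of the 11 tested between genotypes at that age and water supply. Of all genes there, 1.34% were called and 0.636% were called lower. The NCED3 call lay just under the threshold and was not tried under the alternatives.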

How the data were processed

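Libraries of messenger RNA were made from total RNA of 24 leaf pools. Per the submitters' processing notes, reads were handled with bcl2fastq, FastQC, Trimmomatic and Trim Galore, and with STAR and RSEM, on the build TAIR10. How the values were scaled is not stated in these sources. The authors deposited a normalized signal in 1 table for each leaf age, in which each library's values share 1 divisor. In each library 96.5 to 97.9% of low values were whole multiples of a common step within 0.002, which gave the depths. Since the others were fractional, as RSEM estimates are, no count model was used.

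The tests used limma 3.58.1 (R 4.3.3) on log2(value + 1), with lmFit, contrasts.fit and a trended eBayes, for genes whose mean over 12 libraries reached 10, with the 4 groups fitted together. P-values are two-sided, adjusted by the Benjamini-Hochberg method over all genes within a comparison, with a threshold of 0.05. They reflect the spread between pools of plants. Log2 fold changes understate the change of low genes. SE is the standard error of a fitted log2 fold change, and values after ± are standard deviations. Values of a gene are given in the order of replicates 1 to 3, and the tables were scaled separately.

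The 10 members, the comparisons and the lists of other genes were chosen with earlier results of these data known. Named beside the members are GTL1, up to 4 called genes per list and comparison, and the 2 genes nearest to each member called in all 4 water comparisons. Transcript lengths, names and promoter windows are from RefSeq's TAIR10.1, and the deposited tables hold no coordinates. Alternatives were pseudocounts of 0.5 and 5, no filter, a filter of 50, array or voom weights, median-of-ratios or quantile scaling, no variance trend, fits of only the 2 groups, a replicate block and leaving out each library. Leaving out the 2 libraries of a table farthest from their groups was added after seeing the data. The procedure was also run on simulated data, whose outcome is not given here and is not used as support. Python 3.11.15 with matplotlib 3.10.9 drew the figures.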

Additional observations from a re-analysis of the deposited data

Results flagged for a closer look

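Members were flagged here because their groups did not overlap, in opposite directions, in a pair of comparisons. That lack of overlap is thus the rule of choice and no result. NAC019 in expanding leaves was listed higher in every well-watered and lower in every deficit library of gtl1-4 than in Col-0, and neither difference passed the test. Groups of 18% and 14.1% of all tested genes did not overlap in these comparisons. The log2 fold change of gtl1-4 against Col-0 was 0.68 when well-watered (adjusted p = 0.521) and -0.68 under deficit (adjusted p = 0.872), at 5 to 22 recovered counts per library. The interaction, -1.36 (SE 0.65), had an unadjusted p of 0.0519 and an adjusted p of 0.845 in limma.

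HB6 in expanding leaves was lower under deficit in every Col-0 library, at a log2 fold change of -0.33 (adjusted p = 0.116), and higher in every gtl1-4 library, at 0.30 (adjusted p = 0.279). Neither passed, and the difference had an adjusted p of 0.845 in limma. In Col-0 HB6 was also higher under deficit in every emerging leaf library, at 0.73 (adjusted p = 0.00242). Groups of 28.7% of all tested genes did not overlap by water supply in Col-0 expanding leaves. The share was 26.4% in gtl1-4 expanding and 35.7% in Col-0 emerging leaves.

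HB5 in Col-0 was higher under deficit in every emerging leaf library, at 0.30, which did not pass (adjusted p = 0.178). It was lower in every expanding leaf library, at -0.61 (adjusted p = 0.0320). The shares of all tested genes without overlap were 35.7% and 28.7% in these comparisons. The differences between leaf ages were not tested, since the tables were scaled separately.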

How the results depend on the processing

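Of 22 member calls, 15 were kept in every fit without 1 library and 13 under every alternative, and 368 of 400 fits of called members were still called, with 0 reversed. Of 86 comparisons of a member without a call, 6 passed in at least 1 alternative. With array weights 6 in place of 3 members were called in the water response of gtl1-4 expanding leaves, with RD26, NAC032 and NAP added, and 2 in place of 1 for the genotypes averaged over water supplies in expanding leaves. For gtl1-4 against Col-0 in well-watered expanding leaves, 2 members were called, 1 with quantile scaling, 1 without a variance trend and 0 in a fit of only the 2 groups, where fewer libraries estimate the spread. Without 1 library that count was 1 to 1, and the averaged genotype count was 1 to 2, the latter without Col-0 water-deficit replicate 2. The causes of these changes in the counts were not tested. Scaling alternatives moved the median gene by less than 0.03 on the log2 scale.

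No pairing by replicate number was seen in the residuals, and the labels do not say whether the numbers mark sets. Residuals of same-numbered libraries correlated at a median of -0.027 (-0.283 to 0.200) in emerging and -0.0076 (-0.161 to 0.133) in expanding leaves. For differently numbered libraries the median was 0.016 (-0.205 to 0.327) and 0.024 (-0.198 to 0.227). With the replicate block the counts of called members were 5, 6, 5 and 3 in the water comparisons of Col-0 and gtl1-4 emerging and then expanding leaves, and 2 between genotypes in well-watered expanding leaves, as without it. Counts per library of RD26, NAC019 and NAC055 were low, which limits what their values show.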
